A study of Homo sapiens with 6 samples.

Results

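A set of 10 genes of the switch from B cell to plasma cell was followed. The cells were MEC-1, a B cell line established from chronic lymphocytic leukemia (CLL). The genes were PAX5, EBF1, BACH2, POU2AF1, IRF4, PRDM1, XBP1, ELL2, MZB1 and SDC1, taken from a list of names drawn up with earlier results of these data known. Each was read on the array probe set that names it alone and has the highest mean over the 6 arrays, and for ELL2 every such probe set was read. By that rule 9 of the 10 genes were measured, among 18404 genes in all, and EBF1 was not, because its probe set also names PDGFRB.

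All arrays came from MEC-1 cells that had received a lentiviral short hairpin RNA (shRNA) and were grown in RPMI medium with 10% fetal calf serum, without phenol red or antibiotics. In 3 of them the hairpin was directed against UGT2B17, an enzyme that glucuronidates androgens, and in 3 it was a scrambled control. The labels name neither the number of targeting hairpins nor separate cultures or clones, so p-values cover the spread among these arrays, which may be technical. Values are log2 intensities after robust multi-array averaging (RMA), and differences are knockdown minus scrambled.

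In a mature B cell, PAX5 and EBF1 keep the B cell genes on and BACH2 holds the plasma cell programme down. When the cell is driven towards secretion, IRF4 accumulates and PRDM1, which encodes the repressor Blimp-1, shuts off PAX5 and its targets. XBP1 then enlarges the secretory apparatus, ELL2 directs immunoglobulin transcripts to their secreted form, MZB1 helps antibody chains assemble, and SDC1 (CD138) marks the surface of the finished plasma cell.

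Among the 9 measured genes ELL2 fell and MZB1 rose, and the other 7 did not pass the test. ELL2 was 1.43-fold lower with the knockdown on the kept probe set, 7921344, which may read a pseudogene locus. On its other probe set, 8113220, it was 1.47-fold lower. MZB1 was 1.36-fold higher. Both genes belong to the secretory end of the programme, and they moved in opposite directions. With limma and Benjamini-Hochberg adjustment over all genes at a threshold of 0.05, 1 of the 9 rose and 1 fell, where 3.61% of all genes tested passed, 1.92% of them higher and 1.69% lower. The 3 knockdown and 3 scrambled arrays did not overlap for 5 of the 9 genes, ELL2, MZB1, PAX5, XBP1 and SDC1, against 24.8% of all genes. The median log2 fold change was −0.04 over the 9 genes and −0.00 over all genes.

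The targeted gene and the arrays were checked first. UGT2B17 read 3.95, 3.69 and 3.91 on scrambled replicates 1 to 3 and 3.19, 3.27 and 3.17 on knockdown replicates 1 to 3. The log2 fold change was −0.64 ± 0.08 (SE; limma adjusted p = 0.00654), on a probe set at percentile 8.02 of all probe sets by mean level. That is below all 15 measured genes of unrelated tissues, which lay between percentiles 13.5 and 50.7. Whether these UGT2B17 values stand above background was not tested. Scrambled replicate 3 stood furthest from its group mean, at 0.166 log2 units (root mean square) where the other arrays lay at 0.117 to 0.142. It was the highest scrambled array for 5 of the 9 genes and the lowest for 2.

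**Figure D1:**
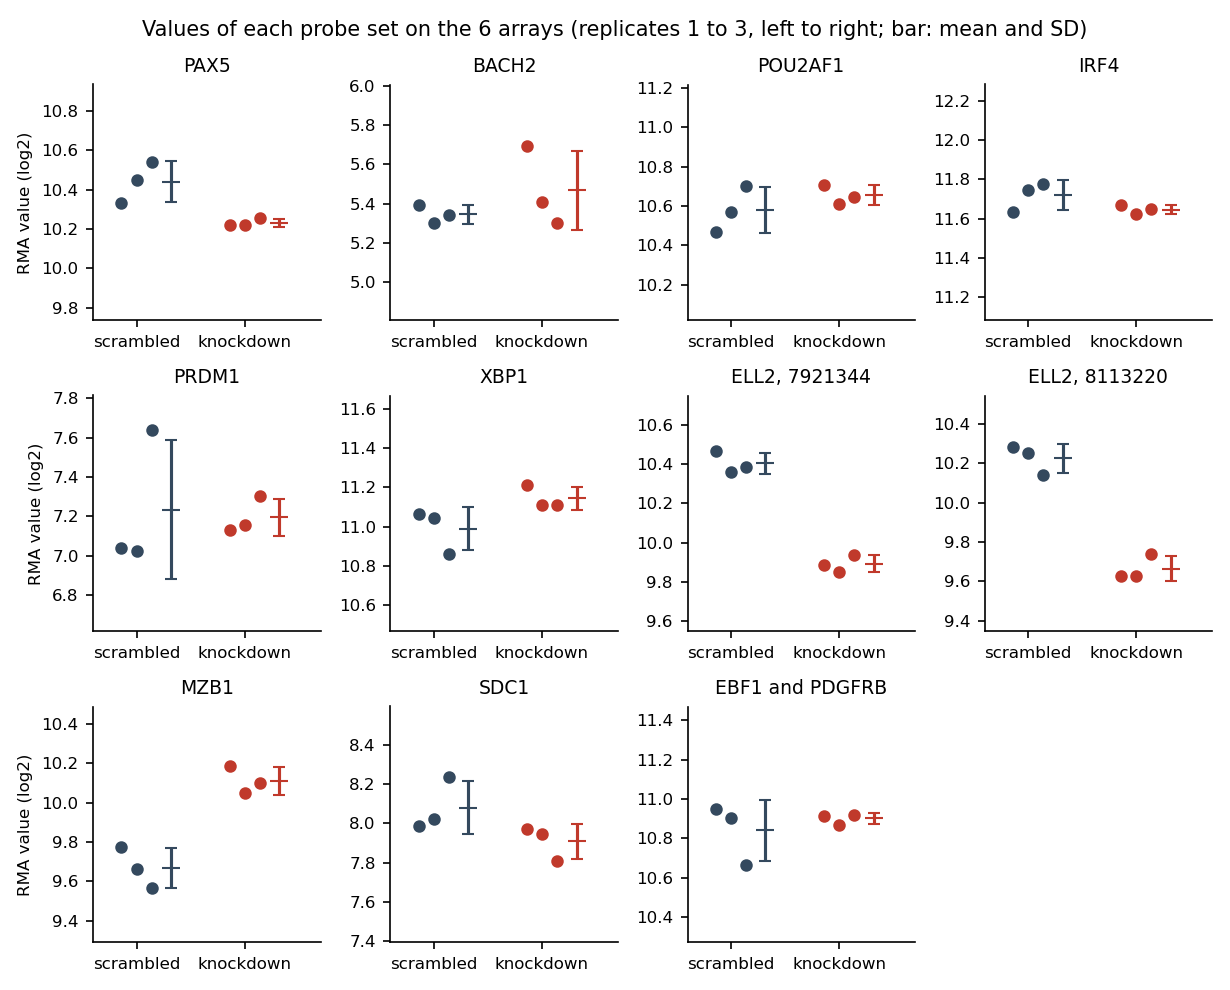
RMA values (log2, vertical axes spanning 1.2 units each) of 11 probe sets on the 3 scrambled arrays (dark) and the 3 knockdown arrays (red), replicates 1 to 3 from left to right, with the mean and SD of each group beside the points. Both ELL2 probe sets are lower and MZB1 is higher on every knockdown array, and PRDM1 is high on scrambled replicate 3 alone.

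PAX5, the factor that commits cells to the B lineage and maintains them there, read 10.33, 10.45 and 10.54 on the scrambled arrays and 10.22, 10.22 and 10.25 on the knockdown arrays. All 3 knockdown arrays lay below the lowest scrambled array, scrambled replicate 1, and spread less than the scrambled ones (SD 0.02 against 0.10, n = 3 each). The log2 fold change of −0.21 ± 0.07 (SE) had a 95% interval of −0.37 to −0.05 and did not pass over all genes (limma adjusted p = 0.162). It passed when arrays were weighted by their quality, with a limma adjusted p of 0.0149. In that fit 3511 of 18404 genes passed, against 665 without weights. An exact permutation test of the 6 values (two-sided) gave p = 0.1, which is the lowest this design can reach.

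EBF1, a pioneer factor that opens B cell genes together with PAX5, could be followed only on the probe set it shares with PDGFRB, a receptor tyrosine kinase of stromal cells. That probe set read 10.95, 10.91 and 10.67 on the scrambled arrays and 10.91, 10.87 and 10.92 on the knockdown arrays. The groups overlapped, and only scrambled replicate 3 lay apart. In a fit over all 32321 deposited probe sets, where 0.511% passed, the log2 fold change was 0.06 with a 95% interval of −0.15 to 0.27 (adjusted p = 0.821). PDGFRB on a probe set of its own read 6.24 ± 0.07 and 6.29 ± 0.09 (SD, n = 3 each), at a log2 fold change of 0.05 (adjusted p = 0.760). Which of the 2 genes gave the shared signal was not tested.

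BACH2, a repressor that holds PRDM1 down in B cells, was the dimmest of the 9, at percentile 34.7 of all probe sets, where background compresses differences. It read 5.39, 5.30 and 5.34 on the scrambled arrays and 5.69, 5.41 and 5.30 on the knockdown arrays. Only knockdown replicate 1 stood above the scrambled arrays by more than their spread. BACH2 therefore had a log2 fold change of 0.12 with an interval of −0.10 to 0.35 (adjusted p = 0.584), and of 0.01 without that array.

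POU2AF1, the coactivator OBF-1 that works with octamer-binding factors on immunoglobulin and germinal centre genes, read 10.47, 10.57 and 10.70 on the scrambled arrays and 10.71, 10.61 and 10.65 on the knockdown arrays. The groups overlapped. Their difference was 0.08 log2 units, with an interval of −0.10 to 0.25 (adjusted p = 0.671).

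Of the 3 factors that drive the switch, none passed. IRF4, needed both for activated B cells and, at high dose, for plasma cells, read 11.63, 11.75 and 11.78 on the scrambled arrays and 11.67, 11.62 and 11.65 on the knockdown arrays. Its groups overlapped and its interval was narrow, at −0.22 to 0.08 around a log2 fold change of −0.07 (adjusted p = 0.628).

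PRDM1 read 7.04, 7.02 and 7.64 on the scrambled arrays and 7.13, 7.15 and 7.30 on the knockdown arrays. Scrambled replicate 3 stood above the other 5 arrays, and the knockdown arrays stood between it and the other scrambled arrays. The log2 fold change of −0.04 had the widest interval of the 9 genes, −0.39 to 0.31 (adjusted p = 0.929). Without scrambled replicate 3 it turned to 0.16 (adjusted p = 0.286), and with array weights to 0.15 (adjusted p = 0.228). No direction can therefore be given for PRDM1.

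XBP1, whose messenger RNA is spliced by IRE1 to yield the active factor, read 11.06, 11.04 and 10.86 on the scrambled arrays and 11.21, 11.11 and 11.11 on the knockdown arrays. All 3 knockdown arrays lay above all 3 scrambled arrays, by 0.046 log2 units at the closest. The log2 fold change of 0.15 ± 0.08 (SE) did not pass (interval −0.02 to 0.33, adjusted p = 0.332), and the exact permutation test (two-sided) gave its lowest possible p, 0.1. A single value per gene does not separate spliced from unspliced XBP1. RefSeq lists 1 XBP1 pseudogene, and whether it adds to the signal was not tested.

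ELL2, a transcription elongation factor that plasma cells use to favour the secretory poly(A) site of the heavy chain, has 2 probe sets that name it alone, and both fell. Probe set 7921344 read 10.46, 10.36 and 10.39 on the scrambled arrays and 9.89, 9.85 and 9.94 on the knockdown arrays. Probe set 8113220 read 10.28, 10.25 and 10.14 on the scrambled arrays and 9.63, 9.63 and 9.74 on the knockdown arrays. On both, each knockdown array lay well below each scrambled array. On the first, the log2 fold change was −0.51 ± 0.06 (SE; adjusted p = 0.00620), with an interval of −0.66 to −0.37, which left 70.2% of the scrambled signal and ranked 75 of 18404 genes by p. On the second it was −0.56 ± 0.07 (adjusted p = 0.00779), with 67.8% left, in a fit of all 19158 probe sets that name 1 gene, where 3.18% passed.

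Both ELL2 readings gave similar sizes. The difference between the probe sets, brighter minus dimmer, was 0.18 ± 0.07 on the scrambled arrays and 0.23 ± 0.03 on the knockdown arrays (SD, n = 3 each). That difference moved by 0.05 log2 units, within the spread of the scrambled arrays (two-sided exact permutation p = 0.4, where 0.1 is the smallest possible). RefSeq lists 4 ELL2 pseudogenes, on chromosomes 1, 4, 13 and X. Probe set 7921344, the one kept for ELL2, may read one of these loci rather than ELL2. Probe positions were not available, so which locus each probe set reads was not tested. In the fit with 1 probe set per gene the ELL2 call held with each of the 6 arrays left out, with log2 fold changes of −0.53 to −0.48. In the fit of all probe sets that name 1 gene it was lost without knockdown replicate 2, with adjusted p of 0.0535 for 7921344 and 0.0522 for 8113220.

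MZB1, a chaperone of the endoplasmic reticulum (ER) in marginal zone B cells and plasma cells that assists immunoglobulin assembly and secretion, read 9.77, 9.66 and 9.57 on the scrambled arrays and 10.19, 10.05 and 10.10 on the knockdown arrays. Each knockdown array exceeded each scrambled array. MZB1 rose by 0.44 ± 0.08 log2 units (SE; adjusted p = 0.0180), with an interval of 0.27 to 0.62, and ranked 269 of 18404 genes by p. The call was lost without knockdown replicates 1, 2 or 3 (adjusted p 0.0864, 0.0698 and 0.0772) or scrambled replicate 2 (0.0773). It was also lost over all deposited probe sets (0.0733). In these fits the size stayed between 0.41 and 0.47.

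SDC1, the heparan sulfate proteoglycan CD138, read 7.99, 8.02 and 8.24 on the scrambled arrays and 7.97, 7.95 and 7.81 on the knockdown arrays. The groups did not overlap, but knockdown replicate 1 and scrambled replicate 1 lay 0.015 log2 units apart. The log2 fold change of −0.17 ± 0.09 (SE) did not pass (interval −0.37 to 0.02, adjusted p = 0.339), and was −0.09 without scrambled replicate 3.

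**Figure D2:**
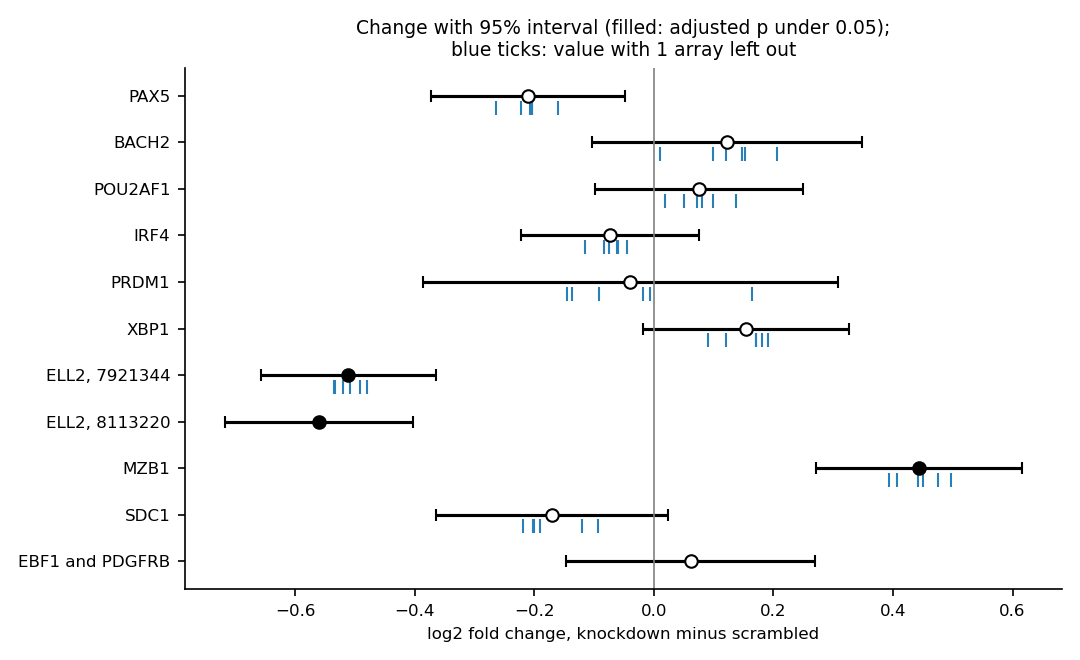
Log2 fold changes (knockdown minus scrambled, horizontal axis) of the same 11 probe sets with 95% intervals; filled circles passed at an adjusted p under 0.05, and blue ticks give the value of the kept probe set with 1 array left out. The ELL2 and MZB1 intervals lie to either side of 0 with no overlap, and 1 of the 6 PRDM1 ticks lies above 0.

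Promoter sequence was taken from RefSeq (GRCh38.p14) for the 8 genes it holds, that is, all but ELL2 and POU2AF1. The 250 bases before the start site are shown for MZB1, which rose, and for XBP1, whose own promoter carries an ER stress element. The MZB1 window is chr5:139389914-139390163 and the XBP1 window chr22:28800570-28800819, both on the minus strand and written 5′ to 3′. Capitals mark the ER stress element (CCAAT and CCACG with 9 bases between them) and its second part CCACG, searched on both strands, with overlapping matches joined.
MZB1: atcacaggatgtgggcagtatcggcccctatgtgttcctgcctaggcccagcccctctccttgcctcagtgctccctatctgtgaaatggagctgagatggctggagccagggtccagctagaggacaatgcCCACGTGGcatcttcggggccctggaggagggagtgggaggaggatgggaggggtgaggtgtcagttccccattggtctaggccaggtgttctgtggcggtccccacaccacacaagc
XBP1: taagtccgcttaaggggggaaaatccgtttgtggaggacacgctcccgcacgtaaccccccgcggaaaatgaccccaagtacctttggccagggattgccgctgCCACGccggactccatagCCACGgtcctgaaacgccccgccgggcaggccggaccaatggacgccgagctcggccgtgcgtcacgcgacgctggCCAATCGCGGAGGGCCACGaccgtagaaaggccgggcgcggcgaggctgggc
Among the 8, XBP1 alone held a whole element, 52 to 34 bases before its start, against 0.0806% of 27305 promoters of the same length. The second part alone occurred in 5 of the 8, MZB1, PAX5, PRDM1, SDC1 and XBP1, and in 33.3% of all promoters. In MZB1 it lay on both strands at overlapping positions. No match was found in these 8 windows for TGACTCA, the element of BACH2 with small MAF proteins (4.16% of all promoters), for the octamer ATGCAAAT (1.66%), for a pair of GAAA runs 2 bases apart, read by IRF factors (3.07%) or for TGACGTG (1.71%). GTGAAAG, the core of the Blimp-1 element, occurred in EBF1 alone (3.28% of all). A match is a run of letters and does not show binding.

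The genes around the switch were read from 10 lists with 226 measured genes besides the members. Of these, 13 rose and 5 fell, or 7.96%, against 3.61% of all genes. The median log2 fold change was 0.02. The count fell to 2, 3 and 3 without knockdown replicates 1, 2 and 3 and to 4 without scrambled replicate 2, and the 665 calls over all genes fell to 181, 152, 175 and 188. CD38 and TNFRSF17 were still called with each array left out. Each of the other 16 lost its call without knockdown replicate 1, and their highest adjusted p over the 6 fits ran from 0.0514 for SEC24D to 0.164 for STAT3. Over all deposited probe sets the same 2 genes of the 18 passed.

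Secretory genes known to act with or downstream of XBP1 formed the longest list. Of 51 measured, 8 rose and 0 fell, against 1.92% and 1.69% of all genes, and 43 lay above 0, against 49.3% of all genes. The list's median log2 fold change was 0.13. SEC24D, a cargo adaptor of COPII vesicles, read 9.92, 9.89 and 9.53 on the scrambled arrays and 10.61, 10.58 and 10.47 on the knockdown arrays, and rose by 0.77 ± 0.11 (SE; adjusted p = 0.00834). SEC23B, of the same vesicle coat, rose by 0.37 ± 0.06, SELENOS, of the ER degradation machinery, by 0.40 ± 0.07, and PDIA5, a disulfide isomerase, by 0.38 ± 0.07. Each of these 4 genes, named for the smallest unadjusted p, was higher on every knockdown array than on every scrambled array. The groups did not overlap for 28 of the 51, against 24.8% of all genes. The calls of the list fell to 0, 0 and 1 without knockdown replicates 1, 2 and 3 and to 1 without scrambled replicate 2, while the median stayed between 0.13 and 0.17. Without scrambled replicate 3 there were 9 calls and 46 genes above 0. Of the 8 genes that rose, 7 have a promoter in the table, and 6 of those hold CCACG, against 34 of 48 over the measured list.

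Plasma cell surface and survival genes moved both ways: of 21 measured, 1 rose, 3 fell and 17 did not pass. Of all genes, 1.92% rose and 1.69% fell. CD38, an NAD-consuming ectoenzyme dense on plasma cells, read 7.27, 7.35 and 7.49 on the scrambled arrays and 6.19, 6.15 and 6.35 on the knockdown arrays. It fell by 1.14 ± 0.08 log2 units (SE; adjusted p = 0.000834). TNFRSF17, the receptor BCMA that long-lived plasma cells need, read 8.39, 8.37 and 8.46 and then 7.77, 7.81 and 7.65, and fell by 0.66 ± 0.07 (adjusted p = 0.00309). IL6ST, the signal-transducing chain of the interleukin 6 receptor, fell by 0.42 ± 0.09, and LAX1, an adaptor of antigen receptor signalling, rose by 0.56 ± 0.09. For all 4, named for the smallest unadjusted p, the groups did not overlap. The same held for 13 of the 21, against 24.8% of all genes. The list's median was −0.04, and without scrambled replicate 3 there were 1 higher and 4 lower calls.

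Immunoglobulin genes and their partners could be read on few probe sets, with 6 of 21 listed genes measured. Limma called 0 of the 6, and 0 had an unadjusted p under 0.05. IGKC was the only antibody chain gene among the 6. JCHAIN, which joins IgM and IgA into polymers, read 11.96 ± 0.20 on the scrambled arrays and 11.95 ± 0.03 on the knockdown arrays (SD, n = 3 each), and IGKC, the kappa constant region, 8.50 ± 0.15 and 8.52 ± 0.22. VPREB3 and VPREB1 had log2 fold changes of 0.26 and −0.14, IGLL1 of 0.10 and PIGR of 0.05. Heavy chain genes were not among those read on a probe set of 1 name, so secreted and membrane forms, on which ELL2 acts, are not analysed here.

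Partners of ELL2 in transcription elongation and 3′ end formation gave 0 calls of 35 in limma, with 5 at an unadjusted p under 0.05, which 18.2% of all genes had. HEXIM1, an inhibitor of the elongation kinase P-TEFb, came closest, at −0.31 (adjusted p = 0.0504), followed by CSTF1 at −0.20, MLLT3 at 0.22 and LEO1 at −0.20. In all, 28 of the 35 lay below 0, against 50.7% of all genes, with a median of −0.09. The same number lay below 0 without scrambled replicate 3, where the median was −0.04.

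Genes that PAX5 and EBF1 activate gave 1 call of 21, where 3.61% of all genes passed. CD24, a surface glycoprotein with near-identical gene copies that may share probe signal, rose by 0.66 ± 0.10 (SE; adjusted p = 0.0127), and 17 of 21 lay above 0 (49.3% of all genes), with a median of 0.09. FCER2 (CD23) at 0.28, CNR2 at 0.25 and CR2 (CD21) at 0.34 did not overlap between groups and did not pass (adjusted p 0.0506, 0.0605 and 0.0804). The groups did not overlap for 11 of the 21, against 24.8% of all genes. Genes that Blimp-1 represses split, with CCR6, a chemokine receptor, higher by 0.35 ± 0.07 and CCR7, the receptor that guides B cells to lymph nodes, lower at −0.33 ± 0.07, among 15 measured (median 0.00). The call of CCR6 was lost with arrays centred on their median. MYC at 0.18 and SYK at 0.19 did not pass.

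Other B cell transcription factors gave 0 calls of 28 in limma, with 3 at an unadjusted p under 0.05 (18.2% of all genes). IKZF1 (Ikaros) had a log2 fold change of 0.35 (adjusted p = 0.119), RUNX1 −0.24, ETS1 0.14 and TCF4 0.13, and the median was 0.03. Of 14 partners and targets of BACH2, NFE2L1, a stress-response factor that pairs with small MAF proteins, rose by 0.29 ± 0.06 (SE; adjusted p = 0.0370). HMOX1, a heme-degrading enzyme that BACH factors repress, was at 0.31, MAFG at 0.21 and MAFF at 0.24, none of which passed. Of 24 corepressors and inducers of Blimp-1, STAT3, which relays interleukin 6 and 21 to PRDM1, rose by 0.28 ± 0.06 (adjusted p = 0.0394). PRDM15 at 0.25, SKI at −0.32 and PRMT5 at −0.40 did not pass. The calls of NFE2L1 and STAT3 were lost with arrays centred on their median. Of 22 syndecans and heparan sulfate enzymes, EXT2, a heparan sulfate polymerase, fell by 0.33 ± 0.07 (adjusted p = 0.0327), and SDCBP at 0.23, XYLT2 at −0.18 and HPSE at 0.20 did not pass. The lists of 14, 24 and 22 genes gave 1 call each, where 3.61% of all genes passed.

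**Figure D3:**
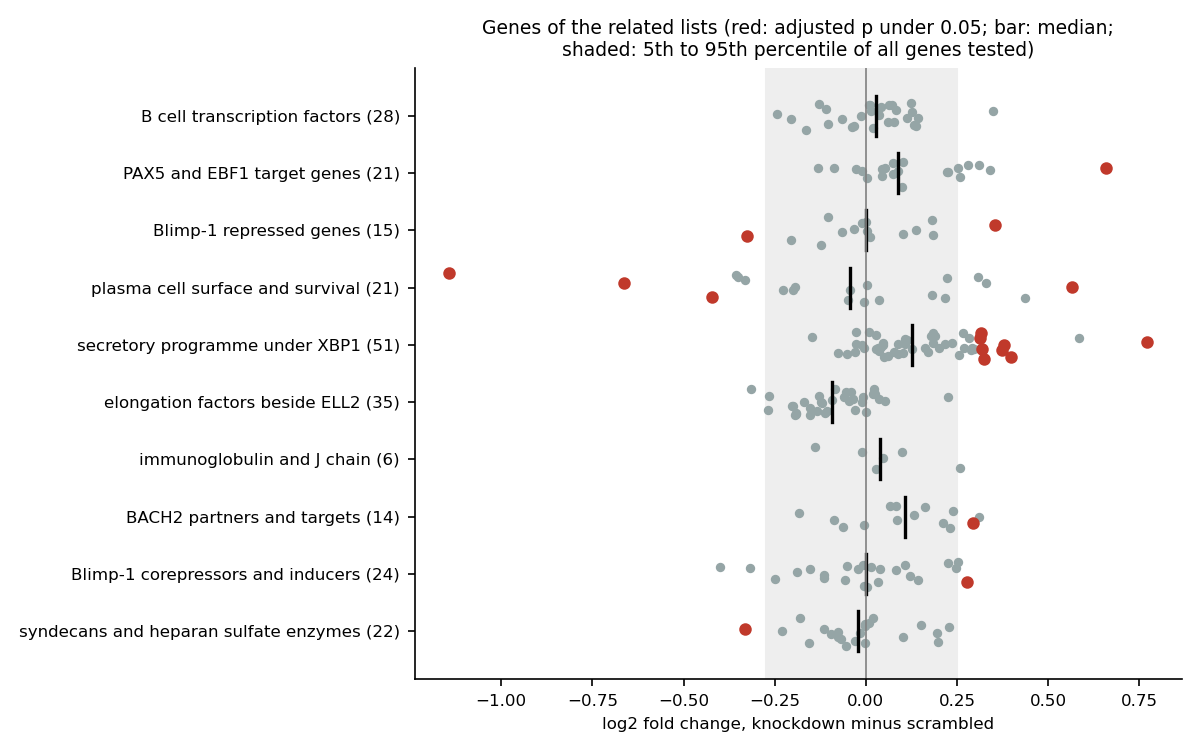
Log2 fold changes (knockdown minus scrambled, horizontal axis) of every measured gene in the 10 lists, with the number measured in brackets, red points for an adjusted p under 0.05, a bar at the median and shading from the 5th to the 95th percentile of all genes tested (−0.27 to 0.25). The secretory list is shifted to the right with all 8 red points above 0, while the plasma cell surface list has 3 red points on the left and 1 on the right.

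The nearest measured genes on either side of each member, 2 each way in RefSeq gene order, were read as well. Of 35 such genes 1 passed, near the share of 3.61% over all genes. It was SLC23A1, a vitamin C transporter and the measured gene next to MZB1 on chromosome 5. It read 7.52, 7.53 and 7.29 on the scrambled arrays and 7.95, 7.91 and 8.07 on the knockdown arrays, and rose by 0.53 ± 0.09 (SE; adjusted p = 0.0153). Every knockdown array lay above every scrambled array. The call was lost without knockdown replicates 1, 2 or 3, where the highest adjusted p was 0.0730, and over all deposited probe sets. The other measured neighbours of MZB1 did not pass, with PAIP2 at 0.02, SPATA24 at −0.09 and DNAJC18 at −0.04. Around ELL2, GLRX was at −0.13, LINC01554 at 0.14, CAST at −0.01 and ERAP1 at −0.08, none of which passed.

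**Figure D4:**
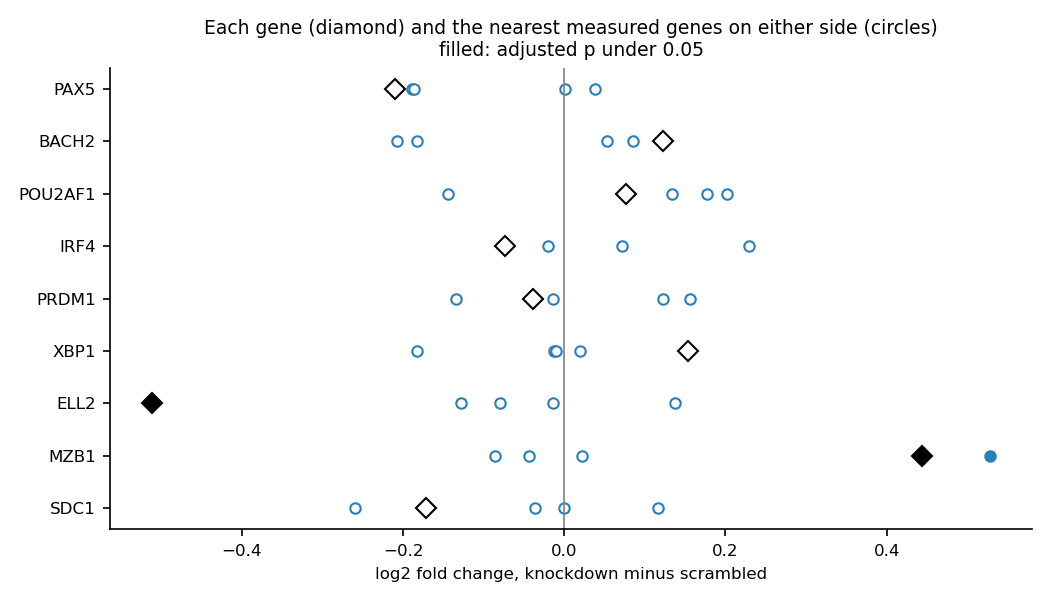
Log2 fold change (knockdown minus scrambled, horizontal axis) of each of the 9 measured genes (diamonds) and of the nearest measured genes on either side (circles), filled where the adjusted p was under 0.05. SLC23A1, at 0.53, is the only filled circle and lies beside MZB1, while the neighbours of ELL2 stay between −0.13 and 0.14.

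Markers of the labelled cell were at high levels. The 6 measured B cell markers, MS4A1, CD22, CD37, CD79A, CD79B and PAX5, had mean values from 9.60 to 12.3, and 0 passed in limma, with 1, PAX5, at an unadjusted p under 0.05 (18.2% of all genes). Defining T cell genes were low, with CD3D, CD3E and CD3G between percentiles 28.8 and 31.9. NK and T cell cytotoxic genes were mixed, with PRF1 at percentile 93.6. Genes of unrelated tissues lay between percentiles 13.5 and 50.7. Averaged over their lists, T and NK cell markers averaged 5.80 to 5.89 on scrambled and 5.81 to 5.85 on knockdown arrays. Limma called 0 of 12 of these, 0 of 10 monocyte and granulocyte markers and 0 of 8 erythroid and platelet markers, with 3, 1 and 1 at an unadjusted p under 0.05 (18.2% of all genes). Epithelial and stromal markers, averaged 5.88 to 5.99 and 5.94 to 5.97, and 1 of 14 passed, KRT18 at 0.32 (adjusted p = 0.0494). Its call was lost in 5 of the 6 fits with an array left out (adjusted p up to 0.183), all but the one without scrambled replicate 3. It was also lost over all deposited probe sets, with a replicate block and with arrays centred on their median (0.0976). Which locus the KRT18 probe set reads was not tested. The fixed plasma cell markers had 0 higher and 2 lower calls of 9, against 1.92% and 1.69% of all genes. The 2 were CD38 and TNFRSF17, already counted in the plasma cell surface list. DERL3, at 0.32 (limma adjusted p = 0.0584), and XBP1 were higher on every knockdown array and did not pass. Of the 9, which include the members XBP1, SDC1 and PRDM1, 3 lay above 0 and 6 below. What part other cell states have in the results was not tested. In bulk RNA of this kind, fewer cells in a state and less RNA per cell cannot be told apart.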

How the data were processed

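Per the labels, biotin-labelled total RNA of each sample was read on an Affymetrix whole-transcript array, with 3 arrays per group. The authors deposited log2 values made with RMA, per the submitters' processing notes, which corrects background, normalises by quantiles and summarises probes. Its version and the genome build were not given in the sources used here. Values were used as deposited. RMA compresses differences near background and removes shifts shared by most genes.

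Probe sets were named by the platform annotation through Entrez identifiers: 19158 named 1 gene, 1388 several and 11775 were not listed. The brightest probe set was kept for 637 genes with more than 1. The test was limma 3.58.1 under R 4.3.3 (lmFit, eBayes, two-sided, Benjamini-Hochberg over 18404 genes, threshold 0.05), with no filter or covariate. Tested on simulated data for 18404 genes, the test recovered 59.4% of genes changed by 0.5 log2 units and 95.6% of those changed by 1, with 4.34% and 4.37% false calls. The number of arrays limits the precision.

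The members and lists were chosen with earlier results of these data known. Named are UGT2B17, all members, of each list up to 4 genes with the smallest unadjusted p, and the 2 measured neighbours on either side of a member that passed. Outside that rule, JCHAIN, IGKC, PDGFRB and cell type markers were named as well. Alternatives were other scalings, a filter on dim genes, other variance models, array weights, other probe set choices, a replicate block, leaving out each array and a threshold of 0.1. Counts of each list with arrays left out were added after seeing the data.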

Additional observations from a re-analysis of the deposited data

How the results depend on the processing

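Across the settings tried, 135 of 143 values of single members kept their direction and side of the threshold. PRDM1 turned to 0.15 with array weights, and with an array left out it ran from −0.14 to 0.16, the latter without scrambled replicate 3, which lay above the other arrays. MZB1 was lost in 5 settings, all named above, and PAX5 passed with array weights. The number of members called was 1 over all deposited probe sets and 1 to 2 with an array left out. The number of ELL2 probe sets called was 0 to 2 with an array left out. All genes called numbered 1207 at an adjusted p under 0.1, 165 over all deposited probe sets, 3511 with array weights and 152 to 759 with an array left out, against 665. Related genes called numbered 40, 2 and 82 in the first 3 of these settings and 2 to 22 with an array left out, against 18. With an intensity trend 29 related genes were called, and 821 of all 18404 genes. Among genes above the median level 30 of 185 related genes were called, and 796 of all 9202 genes. Calls over all genes rose to 694 and 759 without scrambled replicates 1 and 3. Why the counts differ between settings was not tested. The labels do not say whether the replicate numbers pair the samples. Same-numbered arrays had deviations correlated at −0.08, −0.01 and −0.08, which with 3 arrays a group cannot settle pairing. With the replicate number as a block, 367 genes, 7 related genes, 2 members and 2 ELL2 probe sets were called. EBF1 has no value in these alternatives, and BACH2 none among the brighter genes. Neither rescaling moved the median of all genes by over 0.1 log2 units (−0.01 and −0.03). With 3 arrays a group, dim probe sets such as BACH2 are limited most.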
